A study of Mus musculus with 16 samples.

Results

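Endothelial cells of the heart were compared with those of the liver in control mice, gene by gene, to describe how the lining of continuous capillaries differs from that of sinusoids. The comparison takes 5 of the 16 libraries of the study, chosen by their labels: 2 of heart control and 3 of liver control endothelium. All 5 carry the genotype label Wild Type. Their mice had been given tamoxifen, as had the mice of the other groups, and tissue was taken on day 10 of the induction. The other libraries were 3 of lung control endothelium and 8 labelled as Erg and Fli1 double knockout, of which 2 were from heart and 3 from liver. An antibody to VE-cadherin was injected into the living animal, the tissue was digested with collagenase and dispase, and live cells without CD45 and with CD31 and VE-cadherin were sorted for sequencing of polyadenylated RNA. The Cre driver and the altered alleles were not given in the sources used here. Nor is it stated that the libraries of a group came from separate animals, so p-values measure the spread between libraries within groups, which may be technical. That spread was estimated for each gene from all 16 libraries together, not from the 5 alone. Among the 5, only liver control 2 is set apart from its group by sex-linked genes (below). The heart control titled replicate 2 is numbered 3 in its description and is called heart control 2 below.

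Capillaries of heart muscle have an unbroken endothelium on a basement membrane, many caveolae, and a large traffic of fatty acids from blood to the muscle cells. Liver sinusoids are lined by a flat, fenestrated endothelium without a continuous basement membrane, which clears waste molecules from blood through scavenger receptors and lysosomes. It also sends signals such as Wnt and BMP ligands to hepatocytes, where they set metabolic zones and iron balance.

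Library totals over the 5 control libraries ran from 30931177 counts in liver control 2 to 41449054 in liver control 1, and levels are given as counts per 1000000 after scaling of the library totals (CPM). Heart controls correlated with each other at 0.992 and liver controls at 0.991 to 0.992 in log2 CPM across genes, against 0.875 to 0.896 between tissues. Differences are fitted log2 values of heart minus liver, so negative values are higher in liver, and a gene was called at an adjusted p under 0.05 in edgeR's quasi-likelihood test. Of 52636 genes in the table, 19646 had enough counts to be tested. Marker genes of other cells were measured in all 5 libraries. The 213 hepatocyte genes tested summed to 0.235%, 0.384% and 0.808% of counts in liver controls 1 to 3 and to 0.0335% and 0.0541% in the heart controls. The 25 macrophage and Kupffer cell genes summed to 0.0559%, 0.0432% and 0.127% in liver and to 0.0033% and 0.00852% in heart, where Clec4f and Cd5l had no count. Fibroblast genes (31) reached 0.292% and 0.326% in heart against 0.0178% to 0.0255% in liver, and mural cell genes (25) reached 0.182% and 0.176% against 0.0447% to 0.0536%. The 102 cardiomyocyte genes stood at 0.131% and 0.149% in heart and 0.0587% to 0.0675% in liver, with Myl2 and Myl3 at 0 in the 3 liver controls. Of them, 86 were called higher in heart and 7 in liver (median log2 difference 4.82), against 23.8% and 23.9% of all genes tested. Atp2a2, with the highest mean of that list, was not called (249 and 257 CPM in heart, 280, 223 and 267 in liver). Mural genes were higher in heart in 19 and in liver in 5, among the latter Gm13889 and Abcc9 (liver means 140 and 133 CPM). Endocardial cells carry CD31 and VE-cadherin too, so the sort keeps them. Of 20 endocardial genes, 12 were higher in heart and 3 in liver (median 1.81), and the heart count was 7 without heart control 2. Their sum was 0.414% and 0.524% of counts in heart and 0.709% to 0.845% in liver, of which Eng, which other endothelium expresses too, made up the largest share (2557 and 2753 against 5818, 5401 and 6342 CPM). The part of these cells in the gene differences below was not tested, except where values are given without genes of these lists.

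**Figure D1:**
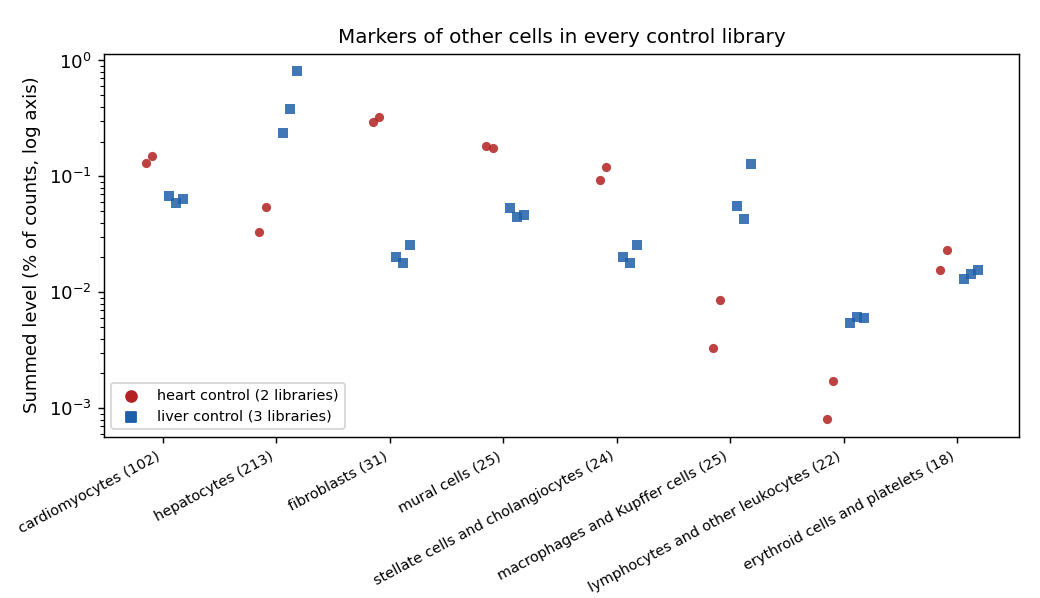
Summed level of the marker genes of 8 kinds of other cells in each control library, as a percentage of all counts on a log axis, with the number of genes tested in brackets (circles, 2 heart controls; squares, 3 liver controls). Fibroblast and mural cell genes were higher in both heart controls, and hepatocyte and macrophage genes were higher in the 3 liver controls, liver control 3 standing highest.

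The 2 endothelia differed in a large part of their expressed genes while both expressed the genes by which endothelium is recognised. The test called 9360 genes (47.6% of those tested), of which 4666 (23.8%) were higher in heart and 4694 (23.9%) higher in liver. At least 2-fold differences were found for 3367 genes higher in heart (17.1%) and 2692 higher in liver (13.7%), and at least 8-fold differences for 1556 (7.92%) and 1171 (5.96%). The heart and liver libraries did not overlap for 13630 genes (69.4%). Without heart control 1, the genes called higher in liver numbered 3120. Among 40 pan-endothelial genes tested, 12 were higher in heart, 10 were higher in liver and 18 were not called, with a median difference of 0.28 against 0 over all genes tested. Cdh5, which encodes VE-cadherin, the sort marker, was at 2630.2 and 2818 CPM in heart and 2196, 1798 and 1950.2 in liver, and Pecam1, which encodes CD31, was at 1766 and 2022 and at 1584, 1338 and 1443; neither difference passed the test. Cd34, a surface sialomucin, had the largest difference in favour of heart among the called members (679 and 624 against 73.9, 32.4 and 56 CPM, log2 difference 3.59, SE 0.65). Clec14a, a C-type lectin, and Calcrl, the receptor of adrenomedullin and calcitonin gene-related peptide, were at the liver end of that list, both at a log2 difference of -2.14. In sorted bulk samples such as these, fewer cells of a type and less RNA per cell cannot be told apart.

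**Figure D2:**
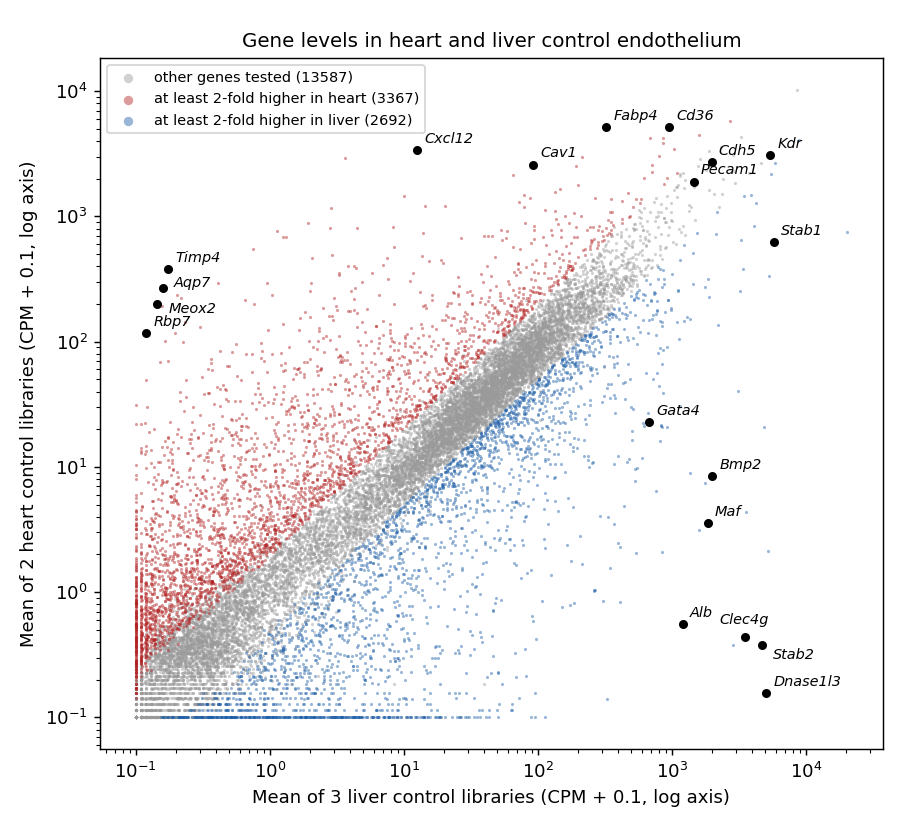
Mean level of each gene tested in the 3 liver controls (horizontal) and the 2 heart controls (vertical), in CPM plus 0.1 on log axes. Red marks the 3367 genes at least 2-fold higher in heart and blue the 2692 at least 2-fold higher in liver; Rbp7, Timp4, Aqp7 and Meox2 lie at the left edge and Dnase1l3, Stab2 and Clec4g at the lower right, while Cdh5 and Pecam1 lie near the diagonal.

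The genes that stood farthest apart in favour of heart were close to absent from the liver controls. Rbp7, a cellular retinoid-binding protein of the fatty acid-binding family (chr4:149449687-149454978, minus strand), was at 101 and 133 CPM in heart and 0.0264, 0.034 and 0 in liver. Because it had 1 to 3 counts in all liver controls together, its size is given as a ratio of counts of 5881 (95% counting interval 1628 to 48570.0) rather than a fitted value (adjusted p = 8.54e-07). Timp4, an inhibitor of matrix metalloproteinases (chr6:115241892-115252205, minus strand), was at 162 and 602 CPM in heart and 0.105, 0 and 0.122 in liver (log2 difference 12.17, SE 1.51, adjusted p = 2.15e-05). Heart control 2 was well above heart control 1 for Timp4, yet both were far above every liver control. Aqp7, a water and glycerol channel, was at 218 and 315 CPM in heart and 0.0791, 0.0681 and 0.0304 in liver (log2 difference 12.04, SE 1.10, adjusted p = 1.42e-06). The homeobox factor Meox2 was at 187 and 216 CPM against 0.105, 0 and 0.0304 (log2 difference 11.89, SE 1.09, adjusted p = 1.47e-06), and the voltage-gated potassium channel Kcna5 at 226 and 244 against 0.158, 0.034 and 0.122 (log2 difference 11.03, SE 0.95, adjusted p = 9.00e-07). Sez6 had no count in any liver control and 9.14 and 11.2 CPM in heart, at least 341-fold higher when 3 counts over the 3 liver libraries stand for its floor. The 12 leading heart genes by size also held Dach1, a transcriptional regulator of coronary artery growth, Ccdc85a, Pcdh19, Tmem182, Nav3 and Slc1a1. Of these, Dach1 (heart mean 194 ± 14 CPM, SD, n = 2) and Ccdc85a (222 ± 85.1) were also high in the 3 lung controls, at 136 ± 18.1 and 184 ± 41.3 CPM (SD, n = 3). Slc1a1, at a lower level, was also similar in heart (14 ± 4.01) and lung (11.9 ± 2.98). The part of cardiomyocytes and other cells of the heart in the differences of these 12 genes was not tested.

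Leading genes in favour of liver were those of the sinusoidal lining and, beside them, several that liver macrophages or hepatocytes also express. Dnase1l3, a secreted nuclease, was at 5072, 4647 and 5442 CPM in liver and 0.058 and 0.0554 in heart (log2 difference -16.36, SE 1.68, adjusted p = 3.94e-06). Stab2, the hyaluronan scavenger receptor stabilin-2 (chr10:86841198-87008025, minus strand), was at 4921, 4833 and 4470.0 against 0.145 and 0.416 (log2 difference -14.02, SE 1.03, adjusted p = 2.34e-07). Clec4g, a C-type lectin known as LSECtin (chr8:3707064-3720651, minus strand), was at 3539, 3371 and 3628 against 0.348 and 0.333 (log2 difference -13.32, SE 1.36, adjusted p = 3.65e-06), and Oit3 at 2951, 2685 and 2965 against 0.174 and 0.388 (log2 difference -13.29, SE 0.64, adjusted p = 1.16e-08). For these 4 genes the 3 liver libraries lay close together and far above both heart libraries. Cd209b, a DC-SIGN-related lectin, had no count in heart and 24.4, 23.7 and 29.3 CPM in liver, at least 607-fold higher with 3 counts over the 2 heart libraries as the floor. On the same floor Cd5l, a macrophage gene (68.8, 73.4 and 195 CPM), was at least 2626-fold higher, Marco (11.9, 3.4 and 28.9 CPM) at least 353-fold and the polymeric immunoglobulin receptor Pigr (8.49, 12.1 and 31.4 CPM) at least 402-fold. Cd5l, Marco and Pigr were highest in liver control 3, the library with the highest sums of hepatocyte and Kupffer cell genes (Alb 584, 1055 and 1986 CPM, Clec4f 61.8, 48.2 and 177 CPM), whereas the 3 liver controls lay close together for Dnase1l3, Stab2, Clec4g and Oit3. The part of those cells in the differences of Cd5l, Marco and Pigr was not tested.

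Among genes at least 4-fold apart, those with the highest CPM in heart, a scale that is not per length, were Cd36 (4487 and 5822 against 1036, 706 and 1117 CPM), Fabp4 (4258 and 6031 against 306, 331 and 332), Hspa1b, Fos, Klf2, Cxcl12, Egr1 and Sparcl1, a list that mixes fatty acid carriers with stress and early response genes. Those with the highest CPM in liver were Selenop (18156, 20020.3 and 22896 against 616 and 886 CPM), a secreted selenium carrier, Stab1 (6248, 5789 and 5388 against 656 and 586), Apoe (5062, 4512 and 6494 against 224 and 444), Fcgr2b (4949, 5197 and 5451 against 1.28 and 2.77), Dnase1l3, Ehd3, Stab2 and Igfbp7. Lung control levels were set beside those of the genes that differed 8-fold and reached a mean of 10 CPM. Of 535 such genes higher in heart, the lung mean was at least 50% of the heart mean in 202 (37.8%) and at least 8-fold below it in 144 (26.9%). Of 410 such genes higher in liver, the lung mean was at least 50% of the liver mean in 37 (9.02%) and at least 8-fold below it in 276 (67.3%).

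ETS factors, the family of Erg and Fli1, bind a GGAA core, and the bases upstream of 4 leading or abundant genes are shown to let their start regions be compared. Each is the 250 bases before the RefSeq start in GRCm38.p6, read 5′ to 3′ on the gene's own strand, and capitals mark AGGAAG or its reverse complement CTTCCT. The windows lie at chr4:149454969-149455218 (Rbp7), chr6:115252206-115252455 (Timp4), chr8:3720652-3720901 (Clec4g) and chr14:31168642-31168891 (Stab1), all on the minus strand. Rbp7 and Timp4 were higher in heart, Clec4g and Stab1 in liver.
Rbp7: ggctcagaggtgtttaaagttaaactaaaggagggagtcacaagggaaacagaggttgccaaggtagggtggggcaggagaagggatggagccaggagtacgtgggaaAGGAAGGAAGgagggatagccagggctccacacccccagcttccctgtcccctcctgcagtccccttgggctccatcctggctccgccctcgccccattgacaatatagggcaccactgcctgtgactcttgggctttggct
Timp4: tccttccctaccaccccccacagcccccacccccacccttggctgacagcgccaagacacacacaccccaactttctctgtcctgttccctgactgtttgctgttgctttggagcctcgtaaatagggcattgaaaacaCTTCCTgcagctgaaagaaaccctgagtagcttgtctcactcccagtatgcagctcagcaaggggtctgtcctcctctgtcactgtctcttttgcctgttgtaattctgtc
Clec4g: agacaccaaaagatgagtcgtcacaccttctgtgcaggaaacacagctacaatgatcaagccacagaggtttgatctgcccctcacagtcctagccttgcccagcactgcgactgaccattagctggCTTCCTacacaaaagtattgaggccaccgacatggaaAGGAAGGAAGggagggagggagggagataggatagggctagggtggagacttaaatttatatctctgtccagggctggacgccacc
Stab1: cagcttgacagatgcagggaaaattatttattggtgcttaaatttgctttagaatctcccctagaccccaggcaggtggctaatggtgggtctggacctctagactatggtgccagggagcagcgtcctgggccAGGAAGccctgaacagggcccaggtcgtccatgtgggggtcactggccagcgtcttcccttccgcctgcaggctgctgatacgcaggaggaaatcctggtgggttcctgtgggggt
The ETS letters were present in 29.2% of the 16557 upstream windows of all genes tested (13026 genes had an entry). The share was 28.5% of 1282 windows of genes at least 8-fold higher in heart and 36.2% of 1052 windows of genes at least 8-fold higher in liver. Without genes of the other-cell lists it was 28.8% and 38.1%. It was 47.2% of 36 windows of capillary markers and 48.1% of 27 windows of sinusoidal markers. The letters AGATAA of a GATA site, on either strand, were in 6.8% of all windows, in 7.1% of the heart set and in 10.6% of the liver set. The letters TGCTGA of a Maf site core, on either strand, were in 13.7%, 15.1% and 18.8%. In the marker lists, of far fewer windows, the GATA letters were in 16.7% of capillary and 0% of sinusoidal marker windows, and the Maf letters in 13.9% and 18.5%. The liver set had a lower base composition in G and C, with a median of 52% and 4 CpG dinucleotides per window against 58% and 9 in the heart set and 58.4% and 13 in all windows. A match describes the letters in the window only and was not tested as a site.

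Markers of continuous capillaries were higher in heart in 27 of 34 genes tested, 3 were higher in liver and 4 were not called, with a median difference of 4.22. The list and the lists below were written with earlier results of these data known. Their counts stand beside the 23.8% and 23.9% of all genes tested that were higher in heart and in liver. After Rbp7, Timp4, Aqp7, Meox2 and Kcna5 the widest gaps were those of the carbonic anhydrase Car4 (225 and 358 against 0.29, 0.409 and 0.243 CPM), the cell-cycle regulator Rgcc (502 and 587 against 0.659, 0.579 and 0.699), the matricellular protein Sparcl1 (2905 and 2979 against 5.48, 2.08 and 3.01) and the nucleoside transporter Slc28a2 (760.0 and 623 against 0.817, 1.12 and 1.52). Each of these had log2 differences above 9 (9.86, 9.71, 9.69 and 9.23) and no overlap between tissues. Ly6c1, a surface antigen of capillary endothelium, was at 973 and 1376 against 4.08, 1.84 and 2.34 CPM. Some genes of that list went the other way or were shared. Aqp1, the water channel, was higher in liver (3489 and 4618 against 8912, 8777 and 9226 CPM, log2 difference -1.15, SE 0.28), as were Nrp2 and Tspan15. Aqp1 was not called without heart control 1 (adjusted p = 0.0564). Nrp2 was not called without heart control 2 (adjusted p = 0.0847). Gpihbp1, the anchor that carries lipoprotein lipase to the capillary lumen, was at 694 and 884 in heart and 1086, 1103 and 1187 in liver and was not called (adjusted p = 0.376), and neither were Cd300lg, Btnl9 and Sgk1.

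Fatty acid handling genes were divided between the tissues. Of 44 genes tested, 19 were higher in heart, 13 higher in liver and 12 not called (median 0.07). Lpl, lipoprotein lipase, was at 618 and 1801 CPM against 17.8, 11.6 and 31.5 (log2 difference 5.90, SE 0.88, adjusted p = 1.03e-04). The fatty acid carrier Fabp4 (log2 difference 3.99, SE 0.69, adjusted p = 3.61e-04) and the translocase Cd36 (log2 difference 2.44, SE 0.33, adjusted p = 4.48e-05) were higher in heart, and so were Fabp5 (1.53) and Pparg, a nuclear receptor that drives lipid uptake genes (68.5 and 108 against 6.9, 5.86 and 6.23 CPM, log2 difference 3.80, SE 0.50). The dimeric regulators of heart endothelial fatty acid uptake, Meox2 and Tcf15, were at 187 and 216 and 261 and 326 CPM in heart, with 0.87, 0.579 and 1.09 CPM of Tcf15 in liver. Genes of lipolysis and lipid storage divided, with the hormone-sensitive lipase Lipe (3.74) and Mgll (1.72) higher in heart and the lipid droplet coat gene Plin2 (49.2 and 83.9 against 115, 141 and 142 CPM) higher in liver. Vegfb, a ligand of Flt1, was lower in heart (8.91 and 8.56 against 40.8, 42.2 and 38.5 CPM, log2 difference -2.21, SE 0.20). Mitochondrial oxidation enzymes differed little, with Hadha at -0.51 and Cpt1a not called. The liver count of this list fell to 3 without heart control 1 and to 8 without liver control 3, and the sign of its median changed over the alternatives. Hadha was not called without heart control 1 (adjusted p = 0.0789). Plin2 was not called without heart control 1 (adjusted p = 0.13). Pdk4 was not called without heart control 1 (adjusted p = 0.0642). In the 23 glycolysis and glucose genes, 6 were higher in heart and 5 in liver, the latter count being 2 without heart control 1. The main shares of glycolysis and glucose genes, 26.1% and 21.7%, were near the 23.8% and 23.9% of all genes tested. The glucose transporters Slc2a4 (4.76 and 5.21 against 0.158, 0.102 and 0.0608 CPM) and Slc2a1 (20.9 and 20.9 against 6.67, 4.49 and 5.01) were on the heart side and Pdk4, a kinase that shuts pyruvate oxidation, on the liver side (12.9 and 26.2 against 108, 84.1 and 108). Gapdh, Ldha, Hk1 and Pfkfb3 were not called.

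**Figure D3:**
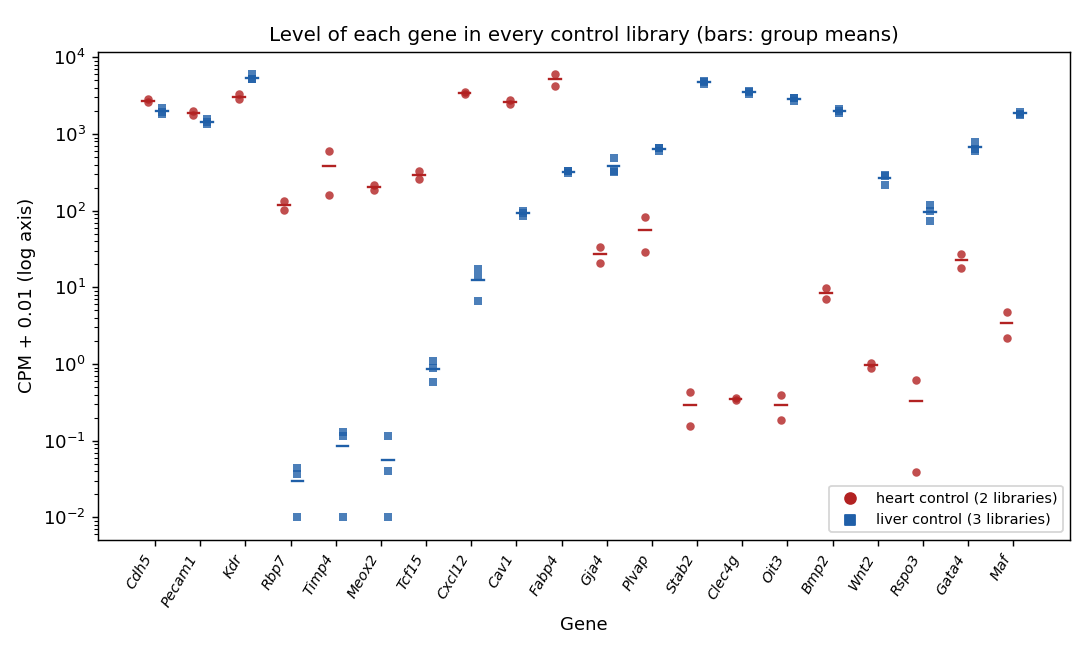
Level of 20 genes in each control library, in CPM plus 0.01 on a log axis (circles, 2 heart controls; squares, 3 liver controls; bars, group means; points at the bottom are libraries with no count). Cdh5, Pecam1 and Kdr differed by less than 2-fold, genes from Rbp7 to Fabp4 were higher in heart and genes from Gja4 to Maf were higher in liver, and Timp4 and Plvap showed a wide gap between the 2 heart controls.

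Caveola genes were mostly higher in heart, and Plvap was higher in liver. Of 16 genes, 10 were higher in heart and 2 in liver (median 1.02). Cav1, the coat protein that builds caveolae, was at 2447 and 2738 CPM in heart and 84, 98.7 and 94.3 in liver (log2 difference 4.81, SE 0.36, adjusted p = 2.75e-07). Its partner Cav2 differed less (log2 difference 1.09, SE 0.24), and of the cavins Cavin1 (3.15) and Cavin3 (4.74) were higher in heart too. The membrane-neck ATPases of the EHD family were opposed. Ehd2, which sits at caveolae, was at 1342 and 1569 CPM in heart and 16.2, 4.19 and 9.72 in liver (log2 difference 7.18, SE 0.58), whereas Ehd3, an endosomal member, was at 17.8 and 23.9 in heart and 5314, 4369 and 4941 in liver (log2 difference -7.87, SE 0.63). Ehd4 was not called, at 102 and 125 and 107, 98.8 and 118 CPM. Plvap, which forms the diaphragms of fenestrae and caveolae, was at 666, 598 and 648 CPM in liver and 28.5 and 83.2 in heart (log2 difference -3.51, SE 0.38, adjusted p = 6.93e-06), and heart control 2 stood at almost 3 times the level of heart control 1. Plvap is also in the endocardial list. It was higher still in the lung controls, at 2514 ± 474 CPM (SD, n = 3), so its level does not set sinusoids apart.

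Junction genes were mixed. Of 31 tested, 12 were higher in heart, 5 in liver and 14 were not called (median 0.39). The scaffold Afdn (1056 and 1176 against 123, 108 and 109.5 CPM, log2 difference 3.30, SE 0.15), Jam3 (2.28) and plakoglobin Jup (1.74) were on the heart side. Cldn5, the main tight junction claudin of endothelium, was higher in liver (387 and 373 against 865, 782 and 793 CPM, log2 difference -1.10, SE 0.21), as was Nectin2 (-2.95). The connexins differed in direction. Gja5 (connexin 40) and Gjc1 (connexin 45) were higher in heart (2.83 and 3.47), Gja1 (connexin 43) was not called, and Gja4 (connexin 37) was at 318, 493 and 324 CPM in liver against 20.8 and 33.2 in heart (log2 difference -3.81, SE 0.39, adjusted p = 4.08e-06).

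Sinusoidal markers were higher in liver in 32 of 34 genes tested (median -7.07). Fgl2, a fibrinogen-like prothrombinase, was the member higher in heart (24.1 and 34.4 against 7.38, 3.54 and 7.75 CPM), and Ccnd1 was not called. Beside Stab2, Clec4g and Oit3, the mannose receptor Mrc1 was at 3544, 3518 and 3599 CPM in liver and 1.89 and 6.68 in heart (log2 difference -9.69, SE 0.89, adjusted p = 1.46e-06), and the inhibitory Fc receptor Fcgr2b had -11.32 on the log2 scale. Gpr182, an atypical chemokine receptor, was at 3187, 2940.3 and 3229 against 26.8 and 53.4 CPM (log2 difference -6.28, SE 0.39), and the hyaluronan receptor Lyve1 at 769, 688 and 1024 against 7.84 and 35 (log2 difference -5.27, SE 0.91). Expression was not absent from heart for each marker: Stab1 stood at 656 and 586 CPM there, Flt4 at 260.2 and 250.2 and Ctsl at 184 and 271, all below the 3 liver libraries. Flt4 and Lyve1 are also in the list of lymphatic endothelium. Its genes summed to 0.0446% and 0.047% of counts in heart and 0.47% to 0.563% in liver. The part of lymphatic cells in these levels was not tested. In the scavenger and endocytic receptor list, 20 of 32 were higher in liver and 5 in heart. Msr1, the class A scavenger receptor (441, 387 and 403 against 0.145 and 1.33 CPM), and Mertk, a receptor for dying cells (509.8, 521 and 507 against 106 and 109), were on the liver side. Lrp1 (241 and 205 against 29, 25.8 and 58.8 CPM), Scarf2 and Cd36 were among those on the heart side, and the lipoprotein receptor Scarb1 was not called. Without 3 members that are also in macrophage lists, 18 of 29 receptors were higher in liver.

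The vesicle and lysosome machinery behind those receptors was also higher in liver, by smaller steps. Of 38 genes, 27 were higher in liver and 4 in heart, with a median of -0.90. The clathrin heavy chain Cltc (-1.22) and light chain Clta (-2.19) were higher in liver, while the other light chain, Cltb, was higher in heart (188 and 203 against 64.4, 62.2 and 60.3 CPM, 1.65). Lysosomal membrane proteins Lamp1 (-1.59) and Lamp2 (1301, 1240.3 and 1371 against 146 and 167 CPM, -3.06) and the proteases Ctsl (-3.06), Ctsb (-2.57), Ctsd (-2.10) and Lgmn (-5.29) were higher in liver. Ctss, which macrophages also express, was at 28.8, 23.6 and 64.2 against 1.13 and 2.08 CPM. Tfeb, a regulator of lysosomal genes, was at 35.8 and 55.3 CPM in heart and 25.6, 33.1 and 32.6 in liver and was not called.

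**Figure D4:**
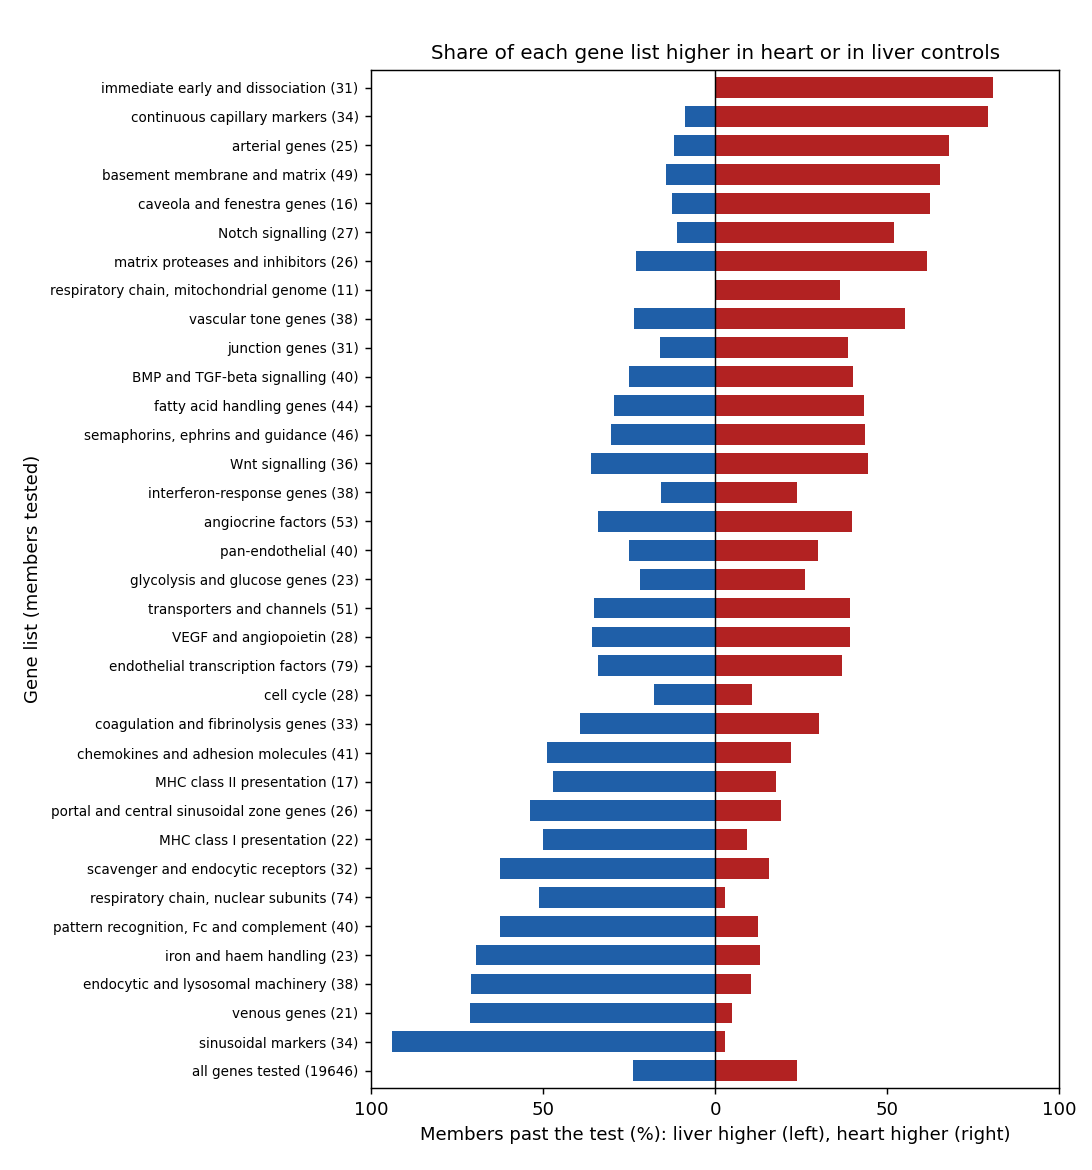
Percentage of the tested members of each gene list that were called higher in liver (blue, left) or higher in heart (red, right), with the number tested in brackets and all genes tested in the lowest row. Sinusoidal, venous and lysosomal genes lie on the liver side and early response, capillary, arterial and matrix genes on the heart side, against 23.9% and 23.8% of all genes.

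Transcription factors divided evenly in number, 29 higher in heart and 27 in liver of 79, with wide gaps for a few. On the heart side, after Meox2, Tcf15 had 261 and 326 CPM against 0.87, 0.579 and 1.09 (log2 difference 8.42, SE 0.61, adjusted p = 2.09e-07) and Meox1 81.2 and 63.7 against 0.343, 0.17 and 0.273 (log2 difference 8.06, SE 0.75, adjusted p = 1.58e-06). The T-box repressor Tbx3 was at 156 and 186 against 1.32, 1.06 and 2.79 CPM and the cardiac T-box factor Tbx20 at 25.3 and 26.9 against 0.158, 0.204 and 0.243. Tbx20 is also in the endocardial list, and the part of endocardial cells in its difference was not tested. The flow-responsive factors Klf2 (3473 and 4267 against 1162, 433 and 1001 CPM, log2 difference 2.16, SE 0.34) and Klf4 (2218 and 2802 against 295, 92.2 and 188, log2 difference 3.71, SE 0.47) were also higher in heart. For both, as for the early response genes Fos and Egr1 below, liver control 2 was the lowest library. The part of tissue handling in their differences was not tested. On the liver side, Maf, a basic leucine zipper factor, was at 1940.2, 1844 and 1779 against 2.18 and 4.74 CPM (log2 difference -9.06, SE 0.49, adjusted p = 2.04e-08). Gata4, which is known to direct sinusoidal differentiation, was at 783, 644 and 597 against 17.7 and 27.5 (log2 difference -4.90, SE 0.62, adjusted p = 2.61e-05), while Gata2 (1.71) and Gata6 (3.42) were higher in heart. Tfec, of the Mitf family, was at 64.6, 64.1 and 62.2 CPM in liver and had a single count in heart. The venous factor Nr2f2 was at 377, 369 and 358 against 27.3 and 47.8 CPM (log2 difference -3.29, SE 0.28), and Zeb2, Irf8, Tbx2 and Hoxb5 were higher in liver too, with log2 differences of -2.60, -2.96, -2.35 and -3.84. The ETS factors named in the knockout labels of the study leaned in opposite directions. Erg was at 204 and 229 CPM in heart and 361, 337 and 371 in liver (log2 difference -0.72, SE 0.15, adjusted p = 0.00125), and Fli1 at 198 and 236 and 123, 113 and 114 (log2 difference 0.90, SE 0.17, adjusted p = 6.53e-04). Ets1, Ets2, Tal1, Mef2c and Sox18 were not called.

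Angiocrine factors, which endothelium secretes to act on nearby cells, were divided between the tissues: of 53 tested, 21 were higher in heart and 18 in liver. The largest heart difference was that of the chemokine Cxcl12 (3295 and 3496 against 13.7, 6.6 and 17.1 CPM, log2 difference 8.09, SE 0.71, adjusted p = 1.02e-06). Igfbp3 (6.73), Igf2 (5.96), Pdgfb, which recruits mural cells (722 and 667 against 39.7, 36.5 and 42 CPM, 4.14), Apln (3.40) and stem cell factor Kitl (2.36) were also higher in heart. In liver, Rspo3, an amplifier of Wnt signals, was at 118, 72.5 and 98.2 CPM against 0.029 and 0.61 (log2 difference -8.20, SE 0.62, adjusted p = 3.08e-07), Wnt2 at 213, 290.0 and 286 against 0.871 and 1.03 (log2 difference -8.11, SE 0.59, adjusted p = 2.11e-07) and Wnt9b at 140.1, 131 and 125 against 12.1 and 13.2 (log2 difference -3.38, SE 0.77). Hgf, the hepatocyte growth factor, was at 130.1, 93 and 96.8 against 1.02 and 0.499 (log2 difference -7.14, SE 0.58, adjusted p = 5.02e-07), and Inhbb, an activin subunit, at 260.1, 114 and 103 against 9.34 and 8.67 (log2 difference -4.14, SE 1.13). Inhbb was not called without heart control 1 or heart control 2 (adjusted p = 0.0613 and 0.0612 in that order). Insulin-like growth factor binding proteins were divided too, Igfbp3 and Igfbp5 being higher in heart and Igfbp4 (-4.03) and Igfbp7 (-2.30) in liver.

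In the BMP and TGF-beta list (16 higher in heart and 10 in liver of 40), the widest gap was that of a ligand. Bmp2, which signals iron load to hepatocytes, was at 2011, 1887 and 2101 CPM in liver and 7.05 and 9.75 in heart (log2 difference -7.89, SE 0.30, adjusted p = 1.93e-09), whereas Bmp6, its companion in iron sensing, was at 342, 408 and 423 and 228 and 362 and was not called (adjusted p = 0.162). Tgfb1 was higher in liver (-1.50) and Tgfb3 (3.62) in heart. Of receptors, Acvrl1 (335 and 365 against 112, 108 and 113 CPM, 1.66) and Bmpr1a (2.65) were higher in heart, and Eng (-1.14), Tgfbr2 (-1.50) and Tgfbr3 (-2.28) in liver. Target genes did not move as a block: Id1 (3.17) and Tmem100 (4.59) were higher in heart, Smad6 (-1.33) in liver, and Smad7 and Id3 were not called.

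Wnt genes did not share a direction. Of 36, 16 were higher in heart and 13 in liver. Beside Wnt2, Wnt9b and Rspo3, the ligand carrier Wls was higher in liver (199, 204 and 215 against 41.3 and 46.5 CPM, -2.23), as were the feedback inhibitor Nkd1 (119, 114 and 116 against 6.99 and 9.64, -3.80) and the co-receptor Lrp6 (-0.97). Wnt5a and Wnt11 were higher in heart at low levels (2.18 and 3.08 and 2.76 and 4.71 CPM). Among frizzled receptors, Fzd1 (1.41), Fzd2 (5.13) and Fzd6 (111 and 119 against 72.4, 43.4 and 49.2 CPM, 1.07) were higher in heart, as was Fzd4, the receptor of Norrin (818 and 772 against 542, 449 and 386, 0.79). Fzd4 was not called without heart control 1, heart control 2, liver control 2 or liver control 3 (adjusted p = 0.123, 0.0912, 0.0665 and 0.0948 in that order). The feedback target Axin2 was at 3.54 and 5.88 CPM in heart and 5.61, 5.0 and 4.19 in liver and was not called. Without heart control 2 the count of Wnt genes higher in heart was 9.

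Notch genes were mostly higher in heart or not called (14 higher in heart and 3 in liver of 27). The ligand Jag2 was at 835 and 783 CPM against 6.93, 2.83 and 3.43 (log2 difference 7.51, SE 1.09, adjusted p = 8.10e-05) and Jag1 at 139 and 164 against 30.3, 26.8 and 29.9 (log2 difference 2.38, SE 0.52), while Dll4 was at 291 and 366 against 399, 316 and 347 and was not called. The endothelial receptor Notch4 (1.18) was higher in heart, as were the targets Hey1 (127 and 136 against 4.85, 3.2 and 5.13 CPM, 4.90), Hey2 (5.95) and Heyl (5.74). The glycosyltransferase Lfng was higher in liver (-2.64). Notch3, which mural cells express, was at 140.2 and 138 CPM in heart and 2.48, 0.238 and 0.729 in liver, beside the mural genes Rgs5 (526 and 608 against 12.9, 5.48 and 6.87) and Pdgfrb (61.7 and 78.9 against 0.843, 0.409 and 1.18). The part of mural RNA in the Notch3 and Heyl differences was not tested.

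In the VEGF and angiopoietin list (11 higher in heart and 10 in liver of 28), the receptors differed in direction. Kdr (VEGF receptor 2) was at 5977, 5145 and 5220.2 CPM in liver and 3309.8 and 2839 in heart (log2 difference -0.83, SE 0.24), Flt4 (VEGF receptor 3) at 3614, 3154 and 2949.8 against 260.2 and 250.2 (log2 difference -3.67, SE 0.35), and Flt1 (VEGF receptor 1) at 2039 and 2398 in heart against 1387, 1137 and 1127 in liver (log2 difference 0.87, SE 0.23). Kdr was not called without heart control 2 (adjusted p = 0.0886). Flt1 was not called without heart control 2 (adjusted p = 0.0597). Tie1 was not called. The ligands Pgf (18.3 and 14.9 against 0.316, 0.102 and 0.0304 CPM) and Angptl4 (10.9 and 27.8 against 1.37, 1.36 and 2.22) were higher in heart, Vegfa and Angpt2 were not called, and the apelin receptor Aplnr was at 305 and 287 CPM in heart against 2.98, 0.919 and 1.88 in liver (log2 difference 7.24, SE 0.61).

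Arterial genes were mostly higher in heart and venous genes mostly in liver. Of 25 arterial genes, 17 were higher in heart (median 2.39), and of 21 venous genes 15 were higher in liver (median -1.50). Sema3g was at 360.4 and 446 CPM in heart and 9.88, 0.749 and 1.79 in liver (log2 difference 6.58, SE 1.56), Stmn2 at 85.3 and 74.1 against 1.08, 0.204 and 0.638 (log2 difference 6.90, SE 0.89), and Efnb2, the arterial ephrin, at 392 and 418 against 183, 173 and 186 (log2 difference 1.17, SE 0.32). Liver control 2 was the lowest liver library for Sema3g and for Vwf (677, 186 and 471 CPM, against 364 and 757 in heart, not called). Gja4 was among the 3 arterial genes higher in liver, a count that was 1 without heart control 1, liver control 2 or liver control 3 and with total-count scaling. Mgp, Eln and Fbln5, also in the arterial list, are genes that mural cells and fibroblasts can express, and their levels (5.69, 3.06 and 3.45 in log2 difference) stood beside the higher mural and fibroblast sums of heart. The ephrin receptor Ephb4 was higher in liver (746, 967 and 812 against 424 and 489.8 CPM, log2 difference -0.88, SE 0.20), as were Slco2a1, a prostaglandin transporter (843, 900.1 and 845 against 30.8 and 46.6, log2 difference -4.48, SE 0.37), Selp (-4.34) and Ackr1 (52.2, 23.1 and 40 against 0.406 and 0.194, log2 difference -6.99, SE 0.66). Emcn was the venous gene higher in heart (0.57). Emcn was not called without heart control 1, heart control 2, liver control 2 or liver control 3 (adjusted p = 0.0862, 0.101, 0.0665 and 0.0695 in that order). Of 26 genes that mark portal or central zones of the sinusoid, 14 were higher in liver and 5 in heart, and the latter were Fabp4, Cd36, Jag1, Thbd and Efnb2.

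Coagulation and fibrinolysis genes were divided. Of 33, 10 were higher in heart and 13 in liver. F8, coagulation factor VIII, was at 1627, 1691 and 1513 CPM in liver and 2.0 and 4.02 in heart (log2 difference -9.06, SE 0.46, adjusted p = 1.65e-08). The tissue plasminogen activator Plat was at 187 and 184 in heart and 3.98, 1.26 and 2.0 in liver (log2 difference 6.24, SE 0.76, adjusted p = 1.74e-05). The other activator, Plau, was higher in liver (213, 175 and 173 against 16.4 and 17.4, log2 difference -3.46, SE 0.40). Thrombomodulin Thbd was higher in heart (909 and 1266 against 356, 373 and 341 CPM), while Tfpi (-3.24), protein S Pros1 (-2.24) and the thrombin receptor F2r (-2.41) were higher in liver. The factor VIII transport pair Lman1 (-0.73) and Mcfd2 (-1.66) was also higher in liver. Hepatocytes express several clotting factors, and without 2 members of the hepatocyte list the liver count was 11.

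Genes of vascular tone were more often higher in heart (21 of 38) than in liver (9). Nos3, endothelial nitric oxide synthase, was at 406 and 353 CPM in heart and 164, 172 and 168 in liver (log2 difference 1.18, SE 0.21), and its inhibitor Nostrin was higher in liver (-1.75). Angiotensin-converting enzyme Ace (196 and 292 against 21.8, 19.3 and 29.6 CPM, log2 difference 3.37, SE 0.41), the calcium channel Trpv4 (97 and 85.7 against 2.98, 1.16 and 1.85, log2 difference 5.50, SE 0.70), the prostaglandin receptor Ptger4 (7.11) and the endothelin receptor Ednrb (2.88) were higher in heart. The natriuretic peptide receptors were divided: Npr3, the clearance receptor and a marker of endocardium, was at 25.7 and 178 against 6.96, 2.69 and 7.26 CPM (log2 difference 4.17, SE 1.10), with a wide gap between the heart controls and no call without heart control 2 (adjusted p = 0.157), Npr2 was higher in heart (1.45) and Npr1 in liver (-1.36). Ptgs1 was higher in liver (-2.28) and Ptgs2 in heart (4.43). The liver count was 5 without heart control 1 or liver control 3.

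Matrix genes were higher in heart in 32 of 49 tested and in liver in 7, with a median of 1.62. Both main basement membrane collagens were higher in heart by about 2-fold. Col4a1 was at 3982 and 2660.2 CPM against 2231, 1721 and 1746 (log2 difference 0.81, SE 0.30), and Col4a2 had a log2 difference of 1.02. Col4a1 was not called without heart control 1, liver control 2 or liver control 3 (adjusted p = 0.319, 0.0925 and 0.0933 in that order). Col4a2 was not called without heart control 1 (adjusted p = 0.136). Laminin chains differed more: Lamb1 was at 541 and 384 CPM against 1.9, 2.21 and 1.76 (log2 difference 7.89, SE 0.88, adjusted p = 7.93e-06). The log2 differences were 1.74 for Lama5, 1.62 for Lamb2 and 1.79 for Lamc1. Col15a1 was at 298 and 206 against 2.56, 1.12 and 2.04 CPM (log2 difference 7.03, SE 0.47), and perlecan, Hspg2, had a log2 difference of 1.08. The members higher in liver included Col13a1, a transmembrane collagen (461, 579 and 624 against 6.73 and 12.7 CPM, log2 difference -5.83, SE 0.62, adjusted p = 5.10e-06), Emilin1 (-3.45), Itga9 (-3.67), Tinagl1 (-1.54) and Nid1 (-0.67). Fibroblast genes stood higher in heart as well, Col1a1 at 128 and 86 against 7.25, 7.15 and 9.54 CPM and Dcn at 275 and 434 against 8.62, 9.91 and 16.2, and their part in the matrix result was not tested. Without the 2 matrix genes that are in the fibroblast, mural or stellate lists, 31 of 47 were higher in heart. Among proteases and inhibitors, 16 of 26 were higher in heart, such as Mmp15 (561 and 363 against 10.3, 4.39 and 7.38 CPM, log2 difference 5.97, SE 0.48) and Adamts9 (3.44). Mmp14 (514, 527 and 456 against 31.2 and 29.2, log2 difference -4.04, SE 0.19) and Adam23 (-5.37) were higher in liver.

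Genes of antigen presentation and innate sensing leaned to liver. MHC class I genes were higher in liver in 11 of 22 and in heart in 2, by small steps such as -1.26 for B2m and -1.64 for H2-T23. Without heart control 2 the class I liver count was 7, and without heart control 1 the heart count was 0. MHC class II genes were at low levels, 8 of 17 being higher in liver, with H2-Eb1 at 25.4, 13 and 42 CPM in liver and 5.05 and 4.38 in heart, and Ciita was not called. The liver count was 3 without heart control 1 and 4 without heart control 2. Dendritic cells and macrophages express class II genes too, and the macrophage sum was higher in liver; its part was not tested. Cd274, which encodes PD-L1, was higher in heart (131 and 108 against 59, 42.6 and 46.3 CPM, log2 difference 1.28, SE 0.21). Of 40 pattern recognition, Fc and complement genes, 25 were higher in liver, and 19 of 32 without members of the other-cell lists. The neonatal Fc receptor Fcgrt was at 1262, 1403 and 1442 against 130.4 and 175 CPM (log2 difference -3.17, SE 0.33), complement decay factor Cd55 at 1273, 1013 and 1149.5 against 30.9 and 30.1 (log2 difference -5.23, SE 0.49) and the lectin pathway protease Masp1 at 360.4, 261 and 298 against 0.493 and 0.998 (log2 difference -8.67, SE 0.62). Tlr4 (-1.06) and Tlr2 (-2.73) were higher in liver, Tlr3 was not called, and Nod2 was higher in heart (3.21).

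Chemokine and adhesion genes were higher in liver in 20 of 41 and in heart in 9. Cx3cl1 (118 and 78.2 against 1.16, 0.374 and 0.729 CPM, log2 difference 6.98, SE 0.90), Aoc3, known as vascular adhesion protein 1 (6.75), and the Cxcl12 scavenger Ackr3 (4.24) were higher in heart with Cxcl12 itself. Cxcl10 (203, 74.7 and 123 against 6.09 and 4.41 CPM), Cxcl16 (-3.23) and the atypical receptors Ackr2 (-4.46) and Ackr4 (-5.71) were higher in liver, as was the shared cytokine receptor chain Il6st (2939, 3752 and 3556 against 336 and 424, log2 difference -3.17, SE 0.25). Icam1, Icam2 and Sele were not called. Of 38 interferon-response genes, 23 did not pass the test, against 52.4% of all genes tested. The 6 guanylate-binding genes, such as Gbp4 (1.21), were higher in heart and Bst2 (-1.69) and Ifitm2 (-2.15) in liver. The interferon liver count of 6 fell to 3 without heart control 1, heart control 2 or liver control 2, and the heart count of 9 fell to 5 without liver control 1 or liver control 3.

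Transporters were divided between the tissues, 20 of 51 being higher in heart and 18 in liver. The taurine transporter Slc6a6 was at 1516 and 1644 CPM in heart against 150.2, 134 and 116 (log2 difference 3.57, SE 0.30), the drug exporter Abcb1a at 325 and 383 against 3.66, 2.04 and 3.83 (log2 difference 6.79, SE 0.76), and the chloride channel protein Clic5 at 817 and 788 against 4.3, 2.08 and 1.79 (log2 difference 8.19, SE 1.39). Nucleoside transporters were opposed, Slc28a2 being higher in heart and Slc29a1 in liver (874, 783 and 788 against 91.5 and 86.7, log2 difference -3.19, SE 0.28). The amino acid carriers Slc7a5 (-3.49) and Slc7a8 (-6.40) and the metal transporter Slc39a8 (492, 335 and 359 against 1.51 and 3.24, log2 difference -7.37, SE 0.72) were higher in liver. Iron and haem genes were higher in liver in 16 of 23 and in heart in 3. Ferroportin, Slc40a1, was at 289.5, 404 and 539.9 against 1.77 and 2.63 CPM (log2 difference -7.54, SE 0.69, adjusted p = 1.52e-06), and the transferrin receptor Tfrc was higher in heart (26 and 11.1 against 4.85, 4.09 and 5.92, log2 difference 1.90, SE 0.36). Kupffer cells also express ferroportin, and without 5 members of the other-cell lists 13 of 18 iron genes were higher in liver. Hpx and Trf, which hepatocytes secrete, were among the liver genes left out.

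Guidance genes were higher in heart in 20 and in liver in 14 of 46. Sema7a was at 643 and 738 CPM in heart and 1.69, 0.715 and 1.25 in liver (log2 difference 9.13, SE 1.01, adjusted p = 7.80e-06). Its family's receptor Plxnc1, which binds semaphorin 7A, was at 1690.2, 1894 and 1696 in liver and 4.18 and 10.4 in heart (log2 difference -7.91, SE 0.63, adjusted p = 4.85e-07), so the ligand and receptor genes stood on opposite sides. Unc5b (4.45), Epha4 (5.23) and Ephb1 (7.44) were higher in heart, and Robo1 (74.1, 64.1 and 92.7 against 3.13 and 1.41 CPM, -5.08) and Ntn4 (-4.88) in liver, while Robo4 and Plxnd1 were not called.

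Immediate early and stress genes, which dissociation of tissue is known to induce, were higher in heart in 25 of 31 and in liver in 0 (median 2.29). Fos was at 2885 and 5548 CPM in heart and 882, 275 and 919 in liver (log2 difference 2.61, SE 0.75, adjusted p = 0.0114), and its adjusted p was 0.0866 without heart control 2. Egr1 was at 2364 and 3558 against 301, 80.7 and 254 (log2 difference 3.80, SE 0.99), Nr4a1 at 1389 and 1213 against 124, 27.7 and 67.4 (log2 difference 4.15, SE 0.52), Atf3 at 717 and 1042 against 150.4, 14.8 and 77.3 (log2 difference 3.44, SE 1.02) and Jun at 2927 and 4012 against 1385, 495 and 1255 (log2 difference 1.73, SE 0.63). Atf3 was not called without heart control 2 (adjusted p = 0.0522). Jun was not called without heart control 1, heart control 2, liver control 2 or liver control 3 (adjusted p = 0.067, 0.155, 0.11 and 0.057 in that order). Liver control 2 was the lowest library for Fos and Egr1, and 18 of these genes were called higher in heart without it, as many as without liver control 3. The heat-shock gene Hspa1b (5136 and 3372 against 1439.9, 267 and 888 CPM) was not called without heart control 1, without liver control 2 or without liver control 3. Digestion was the same by label, but its length in each tissue was not given in the sources used here, so an early response to handling and one in the tissue cannot be told apart. Of 28 cell cycle genes 20 were not called, against 52.4% of all genes tested. The cell cycle inhibitor Cdkn1a was at 792 and 746 CPM in heart and 80.9, 54.8 and 42.2 in liver (log2 difference 3.70, SE 0.29, adjusted p = 3.38e-07). Mki67 was at 33.9 and 23.7 and 15, 70.7 and 22.4, liver control 2 being highest. That library also differed from the other 4 in Xist (649, 0.783 and 467 CPM in liver controls 1 to 3) and the Y-linked gene Ddx3y (0.0791, 118 and 0.122), while Xist was at 949 and 701 CPM in heart and Ddx3y at 0.058 and 0.111. By these genes liver control 2 reads as male and the other 4 as female. It therefore came from another animal than liver controls 1 and 3, and sex was mixed within the liver controls only. Nuclear genes of the respiratory chain were higher in liver in 38 of 74 by less than 2-fold each, in 9 without heart control 1, in 24 without heart control 2 and in 20 without liver control 3. The main share of these nuclear genes was 51.4%, against 23.9% of all genes tested. Without liver control 3 it stands beside 3948 of 19590 genes, and the count over all genes also fell without heart control 1, as given above. The median of the nuclear genes was -0.42 and ran from -0.55 to -0.32 over the alternatives. Of 11 respiratory chain genes of the mitochondrial genome, 4 were higher in heart and 0 in liver (median 0.90), at 1.57% and 2.85% of counts in heart and 1.49%, 1.93% and 1.46% in liver. The heart count was 1 without heart control 2, the library with the highest sum.

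The heart to liver difference was then read in the libraries labelled Erg and Fli1 double knockout. The control means do not use these libraries, but both contrasts come from 1 fit. They share its gene filter, scaling factors and estimate of spread, so they are not independent. By whole-gene counts, Erg was at 156 ± 1.93 CPM (SD, n = 2) in knockout-labelled heart and 144 ± 18.6 (SD, n = 3) in knockout-labelled liver, below the controls. Fli1 was at 219.6 ± 17.9 and 152 ± 32, not below the controls. Which exons were deleted was not given in the sources used here, so these counts do not check the labels. In that contrast 3570 genes (18.2%) were higher in heart and 3756 (19.1%) in liver. Of the 3367 genes at least 2-fold higher in control heart, 3113 (92.5%) had the same sign, 2122 (63%) were called in the same direction and 44 in the opposite one. Of the 2692 at least 2-fold higher in control liver, 2420 (89.9%) had the same sign, 1745 (64.8%) were called in the same direction and 40 in the opposite one. Their medians were 2.79 and -2.58 in controls, which chose the genes, and 1.89 and -1.47 in the knockout-labelled libraries. Capillary markers had a median of 2.32 there and sinusoidal markers -4.62. The test of the difference between the contrasts called 1635 genes (8.32%), 908 (4.62%) shifted toward heart and 727 (3.7%) toward liver. Such genes numbered 711 without heart control 1, 892 without heart control 2, 992 without knockout-labelled heart 1 and 1074 without knockout-labelled heart 2.

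Several abundant markers were among the genes with a different contrast. Fabp4 fell from a difference of 3.99 in controls to 0.40 in the knockout-labelled libraries (interaction log2 -3.59, SE 0.97, adjusted p = 0.0353), with 2235 ± 549 CPM in knockout-labelled heart and 1693 ± 245 in knockout-labelled liver. Sparcl1 went from 9.69 to 5.74 (interaction log2 -3.96, SE 0.79, adjusted p = 0.00795) and Dach1 from 11.58 to 7.14 (interaction log2 -4.44, SE 0.93, adjusted p = 0.0104). Among liver genes, Fcgr2b went from -11.32 to -6.93 (interaction log2 4.40, SE 0.80, adjusted p = 0.0047) and Oit3 from -13.29 to -10.37 (interaction log2 2.92, SE 0.63, adjusted p = 0.0124). The call of Fabp4 was lost in 8 of the 10 fits that left out 1 library, all but those without knockout-labelled liver 2 or 3 (largest adjusted p 0.137, without knockout-labelled heart 1; 0.0721 and 0.103 without heart controls 1 and 2). Sparcl1 was not called without knockout-labelled heart 1 (adjusted p = 0.0511) and Oit3 without heart control 1 (0.0862). Stab2 (-14.02 and -14.20) and Clec4g (-13.32 and -11.21) had no called difference between the contrasts. Their levels in liver differed, however. Clec4g was at 275 ± 275 CPM (SD, n = 3) in knockout-labelled liver against 3513 ± 131 in liver controls, and Stab2 at 4541 ± 763 against 4741 ± 239. For Clec4g the interaction SE was 2.01, with heart means of 0.34 CPM in controls and 0.112 in knockout-labelled libraries. The missing call of Clec4g is therefore no sign of an equal level.

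**Figure D5:**
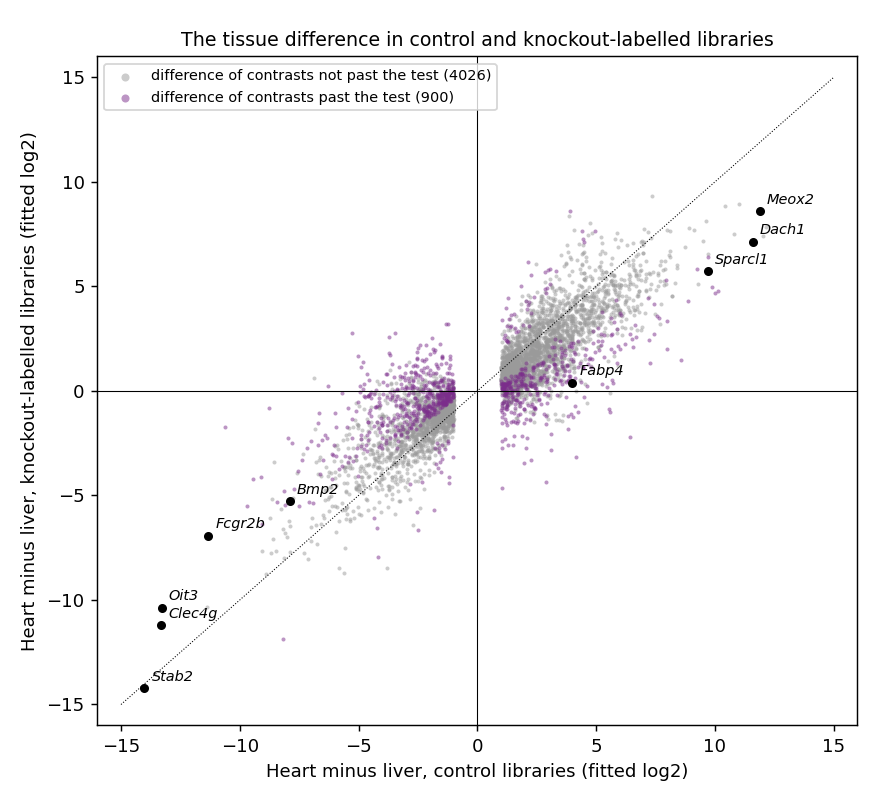
Fitted log2 difference of heart minus liver in control libraries (horizontal) and in knockout-labelled libraries (vertical) for 4926 of the 6059 genes at least 2-fold apart in controls; 1133 genes with 3 or fewer counts in a control group or none in a knockout-labelled group are not drawn. Purple marks the 900 drawn genes whose contrasts differed by the test, and the dotted line marks equal differences: Fabp4 lies near 0 on the vertical axis and Stab2 on the line.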

How the data were processed

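RNA was sequenced from sorted endothelial cells in 16 libraries of 6 groups, 2 heart control and 3 liver control libraries among them. The authors deposited 1 table of raw counts per gene, and per the submitters' processing notes FastQC 0.11.5, STAR 2.7.6a and the GRCm38 genome were used. The counting tool, its strand setting and the gene annotation were not given in the sources used here. Per the labels' protocols libraries were made with a TruSeq kit, either version 2 or Stranded. They do not say which library had which, so kit and tissue cannot be told apart. Symbols and positions were taken from GENCODE M21 on GRCm38 by gene ID, and upstream sequences from RefSeq on GRCm38.p6.

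Counts were fitted in R 4.3.3 with edgeR 4.0.16 (limma 3.58.1), using trimmed mean (TMM) factors, filterByExpr (minimum count 10, minimum total 15) and 1 mean for each of 6 groups. The quasi-likelihood test was applied to heart control minus liver control, to the same contrast in knockout-labelled libraries and to the difference of the contrasts, with Benjamini-Hochberg adjustment over 19646 genes and a threshold of 0.05. The script was tested on simulated data. CPM used the same factors, and the mean and SD are over the libraries of a group. The SE of a difference is its absolute log2 value divided by the square root of the test's F value. It is not a standard error from the fit and is unreliable where a group has few counts. Where a group had no count, 3 counts over the group stood as its floor, and with 1 to 3 counts an exact 95% counting interval is given, which covers counting error only. Alternatives were DESeq2 size factors, total counts, the DESeq2 1.42.0 Wald test, no filter, a minimum count of 50, fits of 5 or 8 control libraries, replicate blocks, each library left out in turn and, chosen after seeing the data, genes of other-cell lists left out.

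Genes were named by rule: the 12 largest differences each way among called genes with no overlap of libraries and a mean of at least 10 CPM, the 8 most abundant each way among those at least 4-fold apart, the 6 largest differences between contrasts each way, and members of 46 gene lists. The members and lists were chosen with earlier results of these data known. Antisense and overlapping genes and near-identical copies share reads and are uncertain.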

Additional observations from a re-analysis of the deposited data

Results flagged for a closer look

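The heart to liver difference itself was tested between control and knockout-labelled libraries with edgeR's quasi-likelihood test of the interaction, which 8.32% of all genes tested passed (adjusted p under 0.05). Of the 38 leading or abundant genes, 9 passed. A further 12, of which 2 are among those 9, were chosen for the size of this difference among genes that passed, so that their passing was fixed by the choice. Members of gene lists are not listed here. Values are the knockout-labelled difference minus the control difference on the log2 scale. The difference moved toward liver for Dach1 (-4.44), Nav3 (-5.35), Fabp4 (-3.59), Sparcl1 (-3.96), Cacna1h (-8.63), Vwa3a (-7.13), Bmp1 (-6.55), Zfp979 (-5.94), Hrct1 (-5.93) and Peg10 (-5.68). Bmp1, a procollagen protease, was at 186 and 168 CPM in heart controls and 2.69, 2.55 and 5.95 in liver controls, and at 247 ± 23.2 in knockout-labelled heart and 489 ± 72.8 in knockout-labelled liver. Peg10, a retrotransposon-derived imprinted gene, was at 15.8 and 15.4 and 8.78, 5.24 and 9.08 CPM in the controls and at 13.5 ± 4.81 and 342 ± 131 in the knockout-labelled libraries. For both genes the levels in knockout-labelled liver were above those of liver controls.

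The difference moved toward heart for Oit3 (2.92), Fcgr2b (4.40), Ccn4 (8.91), Hc (7.92), Cd209b (14.26), Marco (8.68), Serpina3i (6.66), Fcrlb (8.90) and Syt12 (8.06). Cd209b, Marco, Serpina3i and Fcrlb had no count in heart controls and Syt12 had 3, so their fitted values depend on the prior count and are no bounds. Cd209b was at 24.4, 23.7 and 29.3 CPM in liver controls and 0.779 ± 0.952 in knockout-labelled liver. Marco was at 11.9, 3.4 and 28.9 CPM in liver controls and 32.3 ± 15.2 in knockout-labelled liver. Cd209b did not pass without heart control 1 (adjusted p = 0.0912), heart control 2 (0.0837) or knockout-labelled heart 2 (1.0). Marco did not pass without heart control 1 (0.111), heart control 2 (0.105), knockout-labelled heart 1 (0.0567) or knockout-labelled heart 2 (0.0613), and Hc did not without heart control 1 (0.0513). Oit3 did not pass without heart control 1 (0.0862) and Sparcl1 without knockout-labelled heart 1 (0.0511). Fabp4 lost the call in 8 of the 10 fits that left out 1 library, all but those without knockout-labelled liver 2 or 3, with adjusted p up to 0.137, and Serpina3i in 9 of them, all but that without knockout-labelled liver 1, with adjusted p up to 0.157.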

How the results depend on the processing

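Of 168 alternative values of the 11 main counts, 151 lay within 1.5 times the reported count and 17 did not. With 1 of the libraries compared left out, genes called between controls numbered 6743 to 8466, with 3623 to 4220 higher in heart and 3120 to 4246 higher in liver, and genes at least 2-fold apart 2862 to 3138 and 2169 to 2600. In the knockout-labelled contrast 4731 to 7427 were called, 2586 to 3655 higher in heart and 2145 to 3772 in liver, the lowest without knockout-labelled heart 1. The difference of contrasts called 711 to 1777 genes, 355 to 996 toward heart and 356 to 798 toward liver, the lowest without heart control 1. The DESeq2 Wald test called 9622 genes between controls and 2673 in the difference of contrasts, 1543 toward heart and 1130 toward liver. The cause was not tested. Where 1 heart library was left out, the lone one was assumed to vary like the other groups. Total-count scaling moved the median of all genes from 0 to 0.0771 and gave 5109 genes higher in heart and 4194 in liver. Of the genes at least 2-fold apart, 78.8% to 100% (heart) and 75.4% to 98.3% (liver) were kept in the alternatives run over all genes. Without genes of the other-cell lists, an alternative chosen after seeing the data, 8959 genes were called between controls. The sign of the list median changed over the alternatives for fatty acid handling, glycolysis, transcription factors, interferon response, and mesothelium and neural cells. Of 4194 alternative calls of 301 named genes between controls, 4123 stayed on their side of the threshold, 36 gained the call and 35 lost it. The test of differences well under 2-fold was limited by the number of heart libraries, 2, and by the spread within groups, estimated over all groups.

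With the replicate number as a block, 9361 genes were called between controls by the title number and 9074 by the description number, 7380 and 7362 in the knockout-labelled contrast, and 1804 and 1604 in the difference of contrasts. Deviations from the group means correlated at 0.28 for heart control 1 with liver control 1, at 0.0159 for the pair titled 2 and at 0.306 for the pair described as 3, over 10714 genes. With only 2 heart controls this does not show that the numbers pair the samples, and the labels do not say so. The block ended the call of Col4a1 by the title number (adjusted p = 0.0566) and the difference of contrasts of Serpina3i by either number (0.0731 and 0.0809).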

Other observations

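Annotated gene classes differed in how often they were called. Of 15408 protein-coding genes tested, 24.8% were higher in heart and 27.9% in liver, with a median difference of -0.07. Of 731 long intergenic RNA genes, 20.4% were higher in heart and 13.5% in liver (median 0.25). Of 860 genes annotated as antisense, 22.1% and 12.4% were called (median 0.46). Since the strand setting of the counting was not given in the sources used here, reads of antisense genes cannot be told apart from those of their partners. Of 747 transcripts still to be checked by experiment (TEC class), 23.2% were higher in heart and 7.23% in liver (median 0.77), and of 889 processed pseudogenes 11.2% and 4.5%. In each of these 4 classes more genes were called in favour of heart than of liver.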
